A study of Mus musculus with 8 samples.

Results

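The cathepsins are proteases of the lysosome and endosome, and 9 of them, Ctsb, Ctsc, Ctsd, Ctse, Ctsh, Ctsk, Ctsl, Ctss and Ctsz, were followed here in whole lungs of newborn mice. Members were taken as every probe set whose only gene symbol in the array annotation was one of these names, which gave 16 probe sets of the 12422 that were not controls. Of the 16, 14 passed a filter on low mean signal that took no account of group, and all 9 genes kept at least 1 tested probe set. RNA was hybridised to 8 arrays in 4 groups of 2. RA-Dex lungs came from mice given retinoic acid on day 3 and dexamethasone on day 4, and RA lungs from mice given retinoic acid and then saline. Dex lungs came from mice given oil and then dexamethasone, and Dil, a name the labels do not spell out, was taken as the arm left over, given oil and then saline. The labels give neither strain, dose nor time of collection, and do not say whether the arrays lettered a and b of a group are separate animals or pools, so the p-values measure the spread between these samples only, which may be technical. In whole lung, a lower signal from fewer cells of a type cannot be told apart from less RNA per cell.

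Most cathepsins are made as inactive precursors, sorted to the lysosome by the mannose 6-phosphate tag and activated there by low pH. Ctsb, Ctsc, Ctsh, Ctsk, Ctsl, Ctss and Ctsz are cysteine proteases, while Ctsd and Ctse are aspartic proteases. Cystatins restrain the cysteine members. In the lung, Ctsh is known from alveolar type II cells, where it takes part in trimming the precursor of surfactant protein B, Ctsl and Ctss can cleave elastin and help to process the invariant chain of MHC class II in antigen-presenting cells, and Ctsk is a collagenase best known from osteoclasts and also made by lung fibroblasts.

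RefSeq start windows on GRCm38.p6, 250 bases before to 50 after a transcript start, were at hand for 6 of the 9 genes (Ctsc, Ctsd, Ctsk, Ctsl, Ctss and Ctsz). The windows of Ctsl, Ctsd and Ctss are shown as those of the 1 gene with a window that rose with dexamethasone, of the main aspartic member and of a cysteine member that did not pass. Capitals mark the half-site of the glucocorticoid receptor, AGAACA or its complement TGTTCT, and the E-box CACGTG, the core of the element through which the factor TFEB acts on lysosomal genes. Both strands were searched, and in no window shown do the motifs overlap.
Ctsl (chr13:64370471-64370770, minus strand): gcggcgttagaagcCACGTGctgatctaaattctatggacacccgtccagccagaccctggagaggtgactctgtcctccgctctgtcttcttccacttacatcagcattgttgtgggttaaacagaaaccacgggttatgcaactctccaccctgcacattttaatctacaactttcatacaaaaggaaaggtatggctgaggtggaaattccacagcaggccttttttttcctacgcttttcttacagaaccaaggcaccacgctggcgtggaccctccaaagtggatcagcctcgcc
Ctsd (chr7:142387778-142388077, minus strand): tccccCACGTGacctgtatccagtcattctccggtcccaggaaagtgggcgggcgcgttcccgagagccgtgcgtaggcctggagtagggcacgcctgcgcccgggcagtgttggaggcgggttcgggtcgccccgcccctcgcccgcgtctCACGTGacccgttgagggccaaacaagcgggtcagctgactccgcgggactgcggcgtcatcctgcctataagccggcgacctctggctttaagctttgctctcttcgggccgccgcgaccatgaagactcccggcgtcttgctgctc
Ctss (chr3:95526536-95526835, plus strand): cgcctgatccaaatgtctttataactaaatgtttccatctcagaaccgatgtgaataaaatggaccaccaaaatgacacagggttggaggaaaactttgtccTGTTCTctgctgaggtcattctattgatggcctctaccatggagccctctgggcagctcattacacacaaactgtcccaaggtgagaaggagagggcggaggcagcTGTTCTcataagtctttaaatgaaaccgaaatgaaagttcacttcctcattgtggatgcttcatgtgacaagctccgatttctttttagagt
The Ctsl window held 1 E-box and 0 half-sites, the Ctsd window 2 E-boxes and 0 half-sites, and the Ctss window 2 half-sites and 0 E-boxes. Ctsc and Ctsk windows held 1 half-site each and the Ctsz window held neither motif. Of all 32851 windows, 19% held the half-site and 7.15% the E-box. A match is a description of the letters only.

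The signals are linear intensities that the authors had scaled to a common level per array, and signals of different probe sets are not comparable with each other. Arrays are named by group and letter. The label check held: Fkbp5, a chaperone induced by glucocorticoids, was at 6732 and 6463 in RA-Dex and 6440 and 5917 in Dex, against 900 and 1134 in RA and 1422 and 1519 in Dil. All 13 tested genes of a list of 14 glucocorticoid-responsive genes rose with dexamethasone, beside 4.26% of all tested probe sets. Among them were Zbtb16, a transcription factor (log2 fold change 3.97), Ddit4, an inhibitor of growth signalling (2.16), and Cebpd, a transcription factor (2.04). Tsc22d3, also listed, did not pass the filter on low mean signal. Its signals were 96.2 and 81.1 in RA-Dex and 217.9 and 327.2 in Dex, against 100.6 and 167.6 in RA and 68.3 and 325.5 in Dil. Changes were tested with limma, with Benjamini-Hochberg adjustment over 7309 probe sets, and only an adjusted p under 0.05 is called a rise or a fall.

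By the brightest probe set of each gene, Ctsh and Ctsl rose with dexamethasone and the other 7 genes did not pass the test. This comparison sets the 4 arrays of both dexamethasone groups against the 4 others. It averages over the day 3 treatments and does not require a change under each of them. Another probe set of Ctse also rose in it (0.85 ± 0.181, limma adjusted p = 0.0157) and is described below with the other Ctse sets. Ctsh signals were 14332 and 14390.3 in RA-Dex and 14901.5 and 13854 in Dex, against 6395 and 8002 in RA and 7228 and 6165 in Dil. Every dexamethasone array lay above every other array, and the 4 high values were within a narrow band. Ctsh rose 2.08-fold (log2 fold change 1.06, SE 0.103, with 4 arrays on each side; limma adjusted p = 0.000104). Ctsl signals were 4474 and 4834 in RA-Dex and 4152 and 3453 in Dex, against 2391 and 2856 in RA and 2886 and 2558 in Dil. The groups did not overlap here either, with the RA-Dex arrays highest. Ctsl rose 1.57-fold (0.66 ± 0.115, adjusted p = 0.00554). Both calls held without any single array and under every other alternative run. The count of 2 genes of 9 stands beside 4.26% of all tested probe sets that rose, 3.57% that fell and 7.83% that changed in either direction, and 6.8% had all 4 dexamethasone arrays above the others. The median log2 fold change of the 9 genes was -0.001, beside -0.03 over all tested probe sets.

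**Figure D1:**
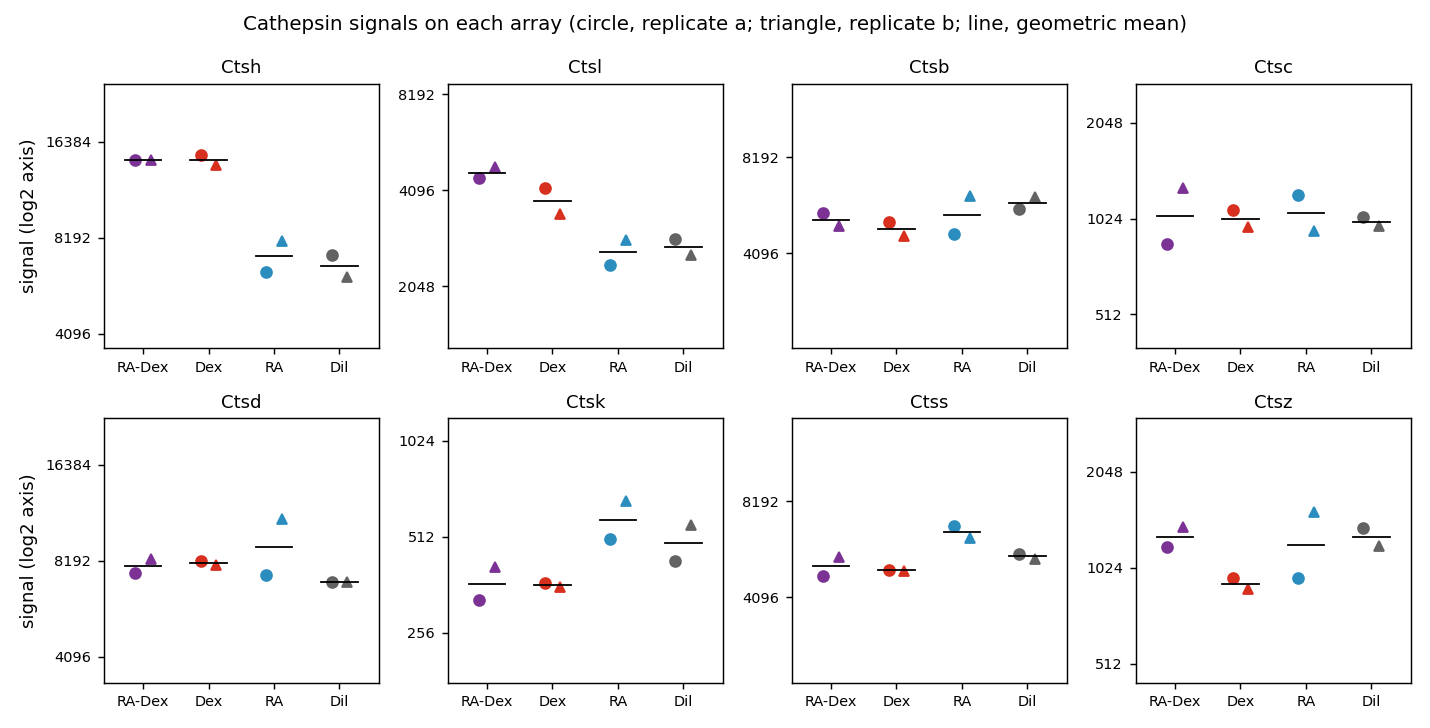
Signal of 8 cathepsin genes on each array, on a log2 axis with a scale of its own for each gene, for RA-Dex, Dex, RA and Dil lungs (n = 2 each); circles are replicate a, triangles replicate b and lines geometric means. Ctsh and Ctsl stand higher on all 4 dexamethasone arrays, and the 4 dexamethasone arrays of Ctsk lie below the 4 others without passing the test.

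The rise of Ctsh was of the same order with and without retinoic acid. It rose 2.01-fold in RA-Dex against RA (log2 fold change 1.005 ± 0.146, adjusted p = 0.00337) and 2.15-fold in Dex against Dil (1.11 ± 0.146, adjusted p = 0.00179). The difference between these effects, tested as the interaction, was -0.10 ± 0.206 (95% interval -0.556 to 0.355, adjusted p = 0.971). In RA-Dex against Dil Ctsh rose 2.15-fold (adjusted p = 0.00149). With no filter on low signals these 3 pairwise calls were just lost (adjusted p = 0.065, 0.0575 and 0.0503 in the order given).

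Ctsl, which trims proteins in lysosomes and can cleave elastin and collagen, rose 1.78-fold in RA-Dex against RA (0.83 ± 0.163, adjusted p = 0.0186). In Dex against Dil the log2 fold change of Ctsl was 0.48 ± 0.163, with no overlap between the groups, as for 21.1% of tested probe sets, and did not pass (adjusted p = 0.176). The interaction of Ctsl, 0.35 ± 0.231, did not pass (95% interval -0.157 to 0.862, adjusted p = 0.898). Against Dil, RA-Dex lungs had 1.71-fold more Ctsl signal (0.78 ± 0.163, adjusted p = 0.0258). When 1 array was left out, the call in RA-Dex against RA was lost for RA a (adjusted p = 0.095), for RA-Dex a (0.0965) and for RA-Dex b (0.168). The call in RA-Dex against Dil was likewise lost for RA-Dex a (0.11), for RA-Dex b (0.196), for Dil a (0.0553) and for Dil b (0.155). In RA-Dex against RA 2 of the 9 genes rose, Ctsh and Ctsl, beside 2.28% of tested probe sets that rose and 3.5% that changed. In Dex against Dil 2 of 9 rose, Ctsh and Ctse, beside 2% that rose and 3.23% that changed. In RA-Dex against Dil 2 of 9 rose, Ctsh and Ctsl, beside 2.57% that rose and 4.01% that changed.

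**Figure D2:**
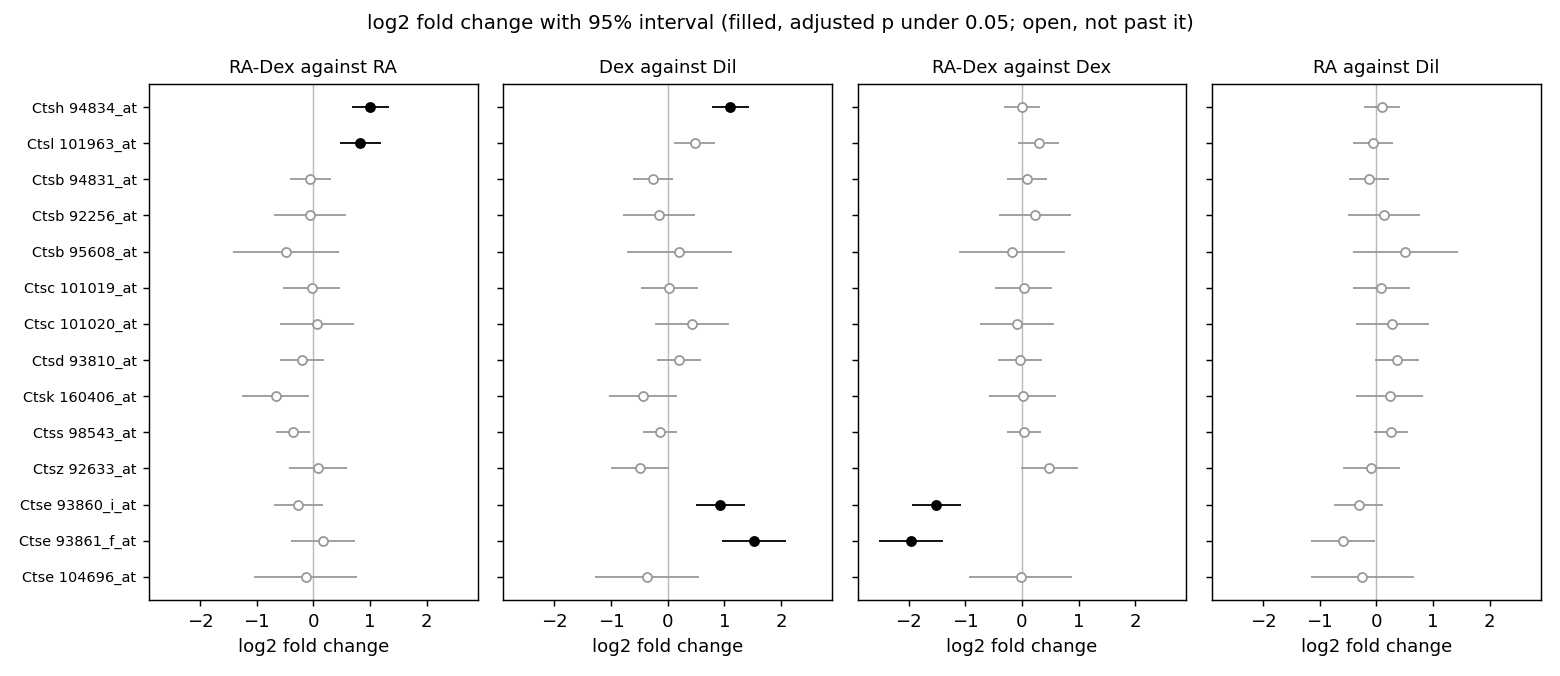
Log2 fold change of the 14 tested cathepsin probe sets in RA-Dex against RA, Dex against Dil, RA-Dex against Dex and RA against Dil, with 95% intervals from the fit; filled points passed an adjusted p of 0.05. Ctsh lies near 1 in both dexamethasone comparisons, and the Ctse probe sets with a suffix are high in Dex against Dil and low in RA-Dex against Dex.

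Since Ctsh is known from type II cells, epithelial markers are given beside it. Of 10 tested airway and alveolar markers 2 rose with dexamethasone, the type I cell genes Hopx (0.62 ± 0.094, adjusted p = 0.00207) and Pdpn (1.145 ± 0.224, adjusted p = 0.0097, and 0.058 without array RA-Dex b), and 0 fell. Their part in the rise of Ctsh was not tested. The median of the 10 was 0.05. Surfactant protein C, Sftpc, the defining type II gene, had a value of -0.02 ± 0.098 on the log2 scale, which did not pass (adjusted p = 0.94), surfactant protein B, Sftpb, of 0.23 ± 0.092 (0.181) and Napsa, an aspartic protease of type II cells that also acts on the surfactant protein B precursor, of 0.11 ± 0.093 (0.569). The summed signal of the 11 markers on the array was 203590 to 216897 in RA-Dex and 185363 to 186622 in Dex, against 188023 to 194668 in RA and 162972 to 206657 in Dil. Sftpc and another listed marker, Scgb1a1, made up most of each sum. Outside epithelium, Pdgfra, a receptor of septal fibroblast precursors, was the 1 mesenchymal marker of 9 that rose (0.87 ± 0.119, adjusted p = 0.00117), with a second probe set at 0.05. With the mean over its probe sets, Pdgfra had 0.22 and did not pass (limma adjusted p = 0.439). Only 3 of the 9 mesenchymal values were positive, and their median was -0.10. Of all tested probe sets 4.26% rose.

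The genes whose log2 signals over the 8 arrays followed Ctsh most closely were Selenbp1, a selenium-binding protein (Pearson r = 0.995), Hk2, a hexokinase (0.989), and Ddit4 (0.985). Those closest to Ctsl were Eci2, an enzyme of fatty acid oxidation (0.994), Lpin2, a phosphatidate phosphatase (0.988), and Lrrc8a, a subunit of volume-regulated anion channels (0.976). These values describe likeness over 8 arrays that fall into dexamethasone and other arrays, and carry no p.

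Among the cysteine cathepsins that did not pass, Ctsk and Ctss had lower values after dexamethasone. Their genes are neighbours on chromosome 3. Ctsk signals were 324 and 410.4 in RA-Dex and 367 and 356 in Dex, against 503 and 663 in RA and 429 and 556 in Dil. All 4 dexamethasone arrays lay below the 4 others, as they did for 7.78% of all tested probe sets. The log2 fold change of Ctsk was -0.55 ± 0.19 (95% interval -0.969 to -0.13), with an adjusted p of 0.116. Ctss, a protease of macrophages and other antigen-presenting cells, had signals of 4784 and 5480 in RA-Dex and 4994 and 4961 in Dex, against 6859 and 6261 in RA and 5593 and 5402 in Dil. The RA arrays were highest, and RA-Dex b overlapped with the Dil arrays. Its log2 fold change was -0.25 ± 0.096 (adjusted p = 0.159).

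Markers of the cells known for these proteases are given beside them. Of all tested probe sets 3.57% fell with dexamethasone. Of 10 tested macrophage markers 2 fell and 0 rose, with a median of -0.34, and 2 of the 10 had positive values. The summed signal of the 15 macrophage markers on the array was 16658 to 17948 in RA-Dex and 17876 to 18226 in Dex, against 22172 to 22379.6 in RA and 20596 to 21505 in Dil, and 2, 1, 2 and 4 of them were at or under the floor on both arrays of those groups. Lyz2 was the largest part of each macrophage sum. It was at 8192 to 8684 in RA-Dex, 8842 to 9166 in Dex, 9093 to 10045.5 in RA and 9475 to 11143 in Dil. Of 12 tested antigen presentation and B cell markers 4 fell and 0 rose, with a median of -0.47 and 0 of 12 at the floor. In Dex against Dil 6 of these 12 fell, with a median of -0.86, beside 1.23% of all tested probe sets that fell. In RA-Dex against RA 0 of them fell, with a median of -0.20, beside 3.5% of all tested probe sets that changed in either direction. In the same order, 1 and 2 macrophage markers fell, with medians of -0.13 and -0.32. Ctss had -0.14 and -0.36 and Ctsk -0.44 and -0.66, none of which passed. The part of either list in the Ctss and Ctsk values was not tested. Of the 4 osteoclast and bone markers on the array 1 passed the filter, Acp5, an acid phosphatase of osteoclasts and macrophages, with 0.30 on average. Acp5 had 0.78 in Dex against Dil, -0.175 in RA-Dex against RA and 0.95 in RA against Dil, with no call in any of these. Calcr, the calcitonin receptor of osteoclasts, was under the floor of 85.3 on all 8 arrays, with a highest signal of 78.2.

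Ctsb, Ctsc and Ctsz did not pass in any of the 8 contrasts. Ctsb, an abundant endopeptidase of most cells, had signals in its brightest probe set of 5462 and 4987 in RA-Dex and 5148 and 4653 in Dex, against 4720 and 6194 in RA and 5629 and 6159 in Dil. The groups overlapped, and the log2 fold change with dexamethasone was -0.16 ± 0.113 (95% interval -0.409 to 0.091). The other tested Ctsb probe sets gave -0.11 ± 0.202 and -0.14 ± 0.298. The other Ctsb probe set, with a highest signal of 213, was at or under the floor on 5 of 8 arrays and was not tested. Ctsc, which activates the serine proteases of granulocytes and lymphocytes, had signals of 852 and 1279.9 in RA-Dex and 1089 and 964 in Dex, against 1218 and 938 in RA and 1036 and 969 in Dil. The RA-Dex replicates were the lowest and the highest of all 8 arrays, and the log2 fold change was -0.001 ± 0.163 (95% interval -0.36 to 0.358). A second tested probe set of Ctsc gave 0.24 ± 0.209, and the one left lay between 119.6 and 240.4 and was not tested. Ctsz, a carboxypeptidase of monocytes and macrophages, had signals of 1190.1 and 1373 in RA-Dex and 950.1 and 879 in Dex, against 950.5 and 1528 in RA and 1364 and 1201 in Dil. Both Dex arrays were lowest or level with RA a. The log2 fold change of Ctsz was -0.49 ± 0.23 in Dex against Dil (adjusted p = 0.369) and 0.48 ± 0.23 in RA-Dex against Dex (adjusted p = 1).

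Ctsd, the main aspartic protease of lysosomes, did not pass in any of the 8 contrasts. Its signals were 7514 and 8264 in RA-Dex and 8163 and 7962 in Dex, against 7382 and 11069.8 in RA and 7002 and 7020.4 in Dil. Array RA b stood above all other arrays, and the Dil arrays were the 2 lowest. Of all tested probe sets, 19.6% had both RA-Dex arrays above Dil, 21.1% both Dex arrays and 17.7% both RA arrays. The log2 fold change with dexamethasone was 0.002 ± 0.125 (95% interval -0.274 to 0.277, adjusted p = 0.997), and that in RA against Dil was 0.37 ± 0.176 (95% interval -0.023 to 0.756, adjusted p = 0.633).

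Ctse, an aspartic protease of endosomes known from stomach and immune cells, was represented by 3 probe sets that did not move together. Of these, 1 has the suffix i and 1 the suffix f, and both are annotated to the same transcript record, while the set with no suffix is annotated to another. In the naming of this array type the suffix i marks a set with too few unique probes and the suffix f a set that can recognise a family of sequences. Signals of the i set were 586 and 764 in RA-Dex and 2072 and 1761 in Dex, against 785 and 828 in RA and 1016 and 986 in Dil. Signals of the f set were 703 and 647 in RA-Dex and 2325 and 2947 in Dex, against 541 and 671 in RA and 699 and 1174 in Dil. In both, the Dex arrays stood above the 6 others. Of all tested probe sets 21.1% had both Dex arrays above both Dil arrays, and the share above all 6 others was not computed. Signals of the unsuffixed set were 210.2 and 179 in RA-Dex and 154 and 252 in Dex, against 222 and 205 in RA and 222 and 289 in Dil. Dex a was the lowest of the 8 arrays and Dex b lay between the Dil arrays. Both RA-Dex arrays and both RA arrays lay below the Dil arrays, as for 27.1% and 15.9% of tested probe sets. RA a, at 222.0, was all but level with Dil a, at 222.1. Neither difference from Dil passed (-0.38 ± 0.414 for RA-Dex and -0.25 ± 0.414 for RA).

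**Figure D3:**
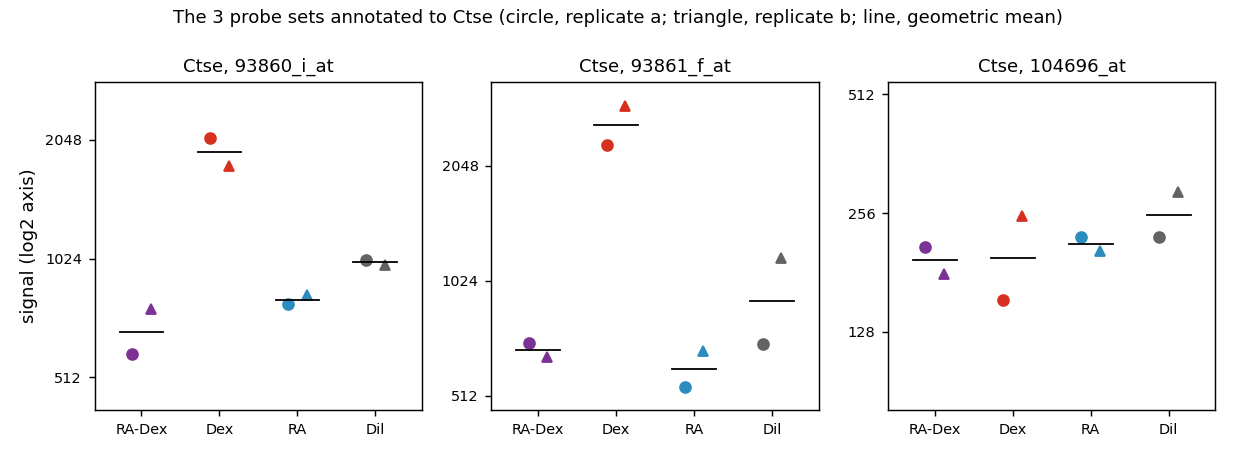
Signal of the 3 probe sets annotated to Ctse on each array, on a log2 axis with a scale of its own for each probe set, for RA-Dex, Dex, RA and Dil lungs (n = 2 each); circles are replicate a, triangles replicate b and lines geometric means. The Dex arrays are highest in the sets with a suffix and not in the set without one.

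In Dex against Dil, the Ctse f set rose 2.89-fold (1.53 ± 0.256, adjusted p = 0.00807) and the i set rose 1.91-fold (0.93 ± 0.196, adjusted p = 0.0286), while the unsuffixed set had -0.36 ± 0.414 (adjusted p = 0.766). In RA-Dex against RA the i set had -0.27 ± 0.196 (adjusted p = 0.578), with both RA-Dex arrays below both RA arrays, as for 26.3% of tested probe sets, and the f set had 0.16 ± 0.256 with overlap (adjusted p = 0.824). In RA-Dex against Dex, which asks what prior retinoic acid changed in dexamethasone lungs, the f set fell to 0.258 of its Dex level (-1.96 ± 0.256, adjusted p = 0.0154) and the i set fell to 0.35 (-1.51 ± 0.196, adjusted p = 0.0154). In that comparison the unsuffixed set had -0.02 ± 0.414 (adjusted p = 1). In all, 0.041% of tested probe sets fell in RA-Dex against Dex and 0.0958% changed in either direction. Of the 9 genes, each by its brightest probe set, only Ctse passed there in limma, and with the unsuffixed set in its place 0 of 9 did, of which 0 at an unadjusted p under 0.05. The call of the i set in Dex against Dil ended when Dex a (adjusted p = 0.221), Dex b (0.0967), Dil a (0.0863) or Dil b (0.143) was left out, and that of the f set when Dex b was (0.0929). In RA-Dex against Dex, the call of the i set ended when Dex a (0.19), Dex b (0.0864), RA-Dex a (0.202) or RA-Dex b (0.0525) was left out, and that of the f set with the same arrays, at 0.0603, 0.202, 0.202 and 0.237 in that order.

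Averaged over the day 4 treatment, retinoic acid arrays had lower signals of both suffixed Ctse sets, with -0.91 ± 0.138 for the i set (adjusted p = 0.0467) and -1.27 ± 0.181 for the f set (adjusted p = 0.037). This fall rests on the Dex arrays: without both of them the values were -0.45 (adjusted p = 0.413) and -0.51 (0.483). The call of the i set was lost whichever array was left out (adjusted p from 0.0518 to 0.207), and that of the f set for 6 of the 8 arrays (from 0.0107 to 0.188 over all 8). Of all tested probe sets 0.0958% fell and 0.15% changed in this average. Averaged over the day 3 treatment, the f set rose with dexamethasone (0.85 ± 0.181, adjusted p = 0.0157) and the i set, at 0.33 ± 0.138, did not pass (0.192). That rise did not pass once Dex b (0.0774), RA-Dex a (0.062) or RA-Dex b (0.0555) was left out, and without both Dex arrays the value was -0.13.

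No gene of the 9 passed in RA against Dil, where 0.0274% of all tested probe sets changed. In limma 0 of the 9 genes by their brightest probe set had an unadjusted p under 0.05 there, and 1 of the 14 tested probe sets did, the Ctse f set (-0.59 ± 0.256, adjusted p = 0.609). In the interaction 0 of 9 passed, beside 0.0137% of all tested probe sets, and 1 gene had an unadjusted p under 0.05, Ctse.

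Stomach markers are given beside Ctse for its known source. Of 5 tested, 1 fell with dexamethasone (Muc1, a mucin that airway epithelium makes too) and 0 rose, and 3 of the 8 on the array were at or under the floor on both Dex arrays. Their summed signal was 9879 to 10958 in RA-Dex and 8676 to 9538 in Dex, against 14767 to 15137 in RA and 11409.7 to 12677 in Dil. Muc1 made up most of that sum. Without it the sum of the other 7 was 2981 to 3604 in RA-Dex and 3081 to 3554 in Dex, against 3182 to 3587 in RA and 2856 to 3269 in Dil, and all 4 groups overlapped. Their part in the Ctse values was not tested. The genes most like the f set over the 8 arrays were Pold1, a DNA polymerase subunit (Pearson r = 0.964), Plk4, a centriole kinase (0.90), and Dbnl, an actin-binding adaptor (0.891), and those most like the i set were Nnat, neuronatin (0.898), Med20, a Mediator subunit (0.892), and Ttk, a mitotic kinase (0.881).

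Most of the other lysosomal genes tested did not pass with dexamethasone. Of 18 tested lysosomal hydrolases 0 rose and 0 fell in limma, with 2 at an unadjusted p under 0.05 and a median log2 fold change of -0.09. Of 6 other lysosomal proteases, among them the asparaginyl endopeptidase Lgmn (-0.02 ± 0.124), which can activate cathepsins, 0 passed, with 1 at an unadjusted p under 0.05. The Lgmn average joins opposite directions, lower in Dex (1051 and 1072) than in Dil (1358 and 1534) and higher in RA-Dex (1240 and 1459.6) than in RA (997.6 and 1041). Of the 6 proteases 0 passed in either of these comparisons. The other cathepsins Ctsa (-0.16 ± 0.117) and Ctsf (-0.10 ± 0.181) were tested and did not pass. At an unadjusted p under 0.05 there were also 6 of 18 membrane and proton pump genes and 4 of 10 regulators of lysosomes and autophagy beside 1557 of all 7309 tested probe sets. The median over all tested probe sets was -0.03, and 7.83% were called.

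Of 6 tested cystatins and other inhibitors only Serpina3n, a serpin, rose (1.74 ± 0.336, adjusted p = 0.00931), with signals of 1428 and 2181 in RA-Dex and 1847 and 1952 in Dex, against 1261 and 1119.6 in RA and 501 and 129 in Dil. The Dil arrays stood lowest, and without both of them the value was 0.62 (adjusted p = 0.0957). The call was also lost when both Dex arrays were left out (1.68, adjusted p = 0.062) and when RA-Dex b was (0.0572). Serpina3n rose in Dex against Dil (2.898 ± 0.476, adjusted p = 0.00718, lost at 0.0511 with Dex a left out and at 0.0649 with Dex b) and in RA-Dex against Dil (2.79 ± 0.476, adjusted p = 0.00764, lost at 0.109 with RA-Dex b left out). Cystatin C, Cst3, the main secreted inhibitor of cysteine cathepsins, had 0.06 ± 0.086 and the cytosolic Cstb 0.08 ± 0.093, neither of which passed.

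In the sorting list of 6 tested genes, Gga2, an adaptor that carries mannose 6-phosphate receptors out of the Golgi, fell (-0.76 ± 0.131, adjusted p = 0.00468), with signals of 990.1 and 887 in RA-Dex and 784 and 984 in Dex, against 1447 and 1585 in RA and 1512 and 1627 in Dil. All 4 dexamethasone arrays were lower. Gga2 also fell in Dex against Dil (-0.84 ± 0.185, adjusted p = 0.035, beside 1.23% of probe sets that fell), a call lost without either Dex, either RA-Dex or either Dil array (adjusted p from 0.0341 to 0.266 over the 8 fits). Vps26a, a retromer subunit that returns the receptors, rose (0.56 ± 0.147, adjusted p = 0.043), and that call was kept in 1 of the 8 fits that left out an array (0.0419 to 0.179). Igf2r, the large mannose 6-phosphate receptor, had -0.15 ± 0.111 and did not pass.

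Of 18 lysosomal membrane and proton pump genes 1 rose and 1 fell, Lamp2, a major membrane protein of lysosomes (0.64 ± 0.166, adjusted p = 0.0404, with a second probe set at 0.41 that did not pass), and Laptm5, a lysosomal protein of blood cells (-0.51 ± 0.126, adjusted p = 0.0327, with a second probe set at -0.06). Both calls were kept in 3 of the 8 fits that left out an array (Lamp2 0.0115 to 0.172, Laptm5 0.0162 to 0.145). Of 10 regulators of lysosomes and autophagy 2 rose and 0 fell, the autophagosome proteins Gabarapl1 (0.67 ± 0.121, adjusted p = 0.00605) and Map1lc3b (0.34 ± 0.094, adjusted p = 0.0485, kept in 1 of 8 such fits, 0.0361 to 0.166). Gabarapl1 kept its call in all 8 such fits, and rose in RA-Dex against Dil as well (0.78 ± 0.171, adjusted p = 0.0295), a call lost when Dex a (0.0503), RA-Dex a (0.138), RA-Dex b (0.196) or Dil b (0.205) was left out.

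**Figure D4:**
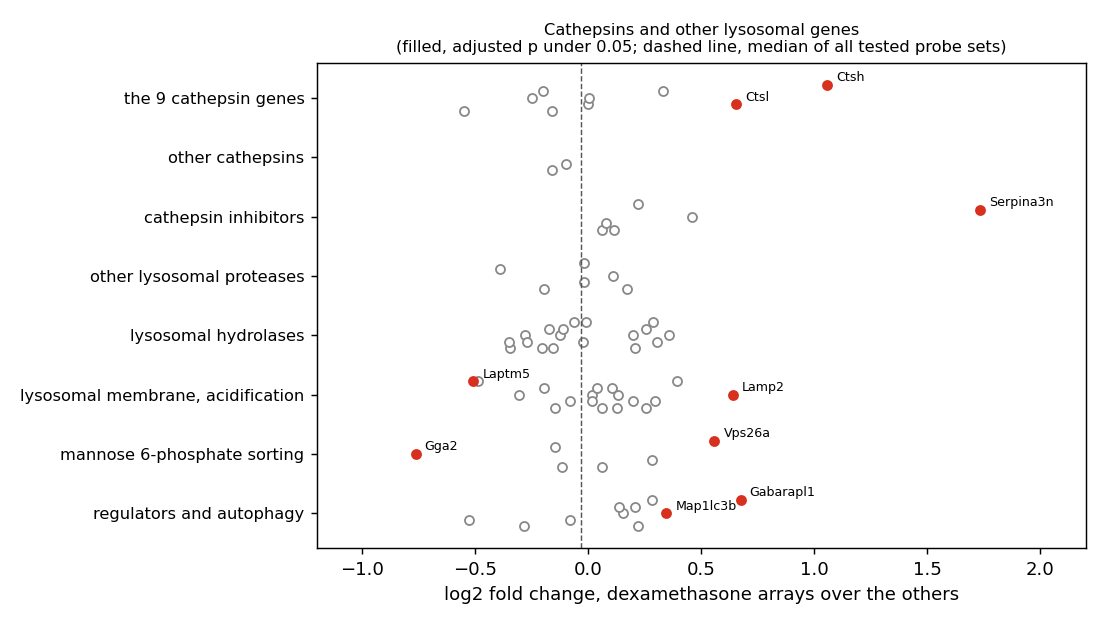
Log2 fold change of the 4 dexamethasone arrays over the 4 others for the 9 cathepsin genes and for 7 lists of related genes, 1 point a gene by its brightest probe set; filled points passed an adjusted p of 0.05 and are named, and the dashed line is the median of all tested probe sets, -0.03. Serpina3n lies farthest to the right among the named genes, followed by Ctsh, Gabarapl1 and Ctsl, and the 18 lysosomal hydrolases hold none that passed.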

How the data were processed

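Whole-lung RNA of 8 mouse samples was measured on an Affymetrix array. What the authors deposited is 1 linear intensity signal for each probe set on each array. They had been scaled, since all 8 arrays had a 2% trimmed mean of 800.4. No label or header used here names the scaling software. Detection calls were not used here. The number of arrays limits the precision. Signals were not normalized again; those under 85.3, the pooled 25th percentile, were set to that floor and taken as log2. Of 12488 probe sets, 66 controls were left out, and 7309 with a mean above a signal of 200.8 (pooled 40th percentile) were tested. Symbols came from the array annotation and were updated by Entrez ID (10817 of 10833 with 1 symbol; 396 had several and 1193 none). RefSeq tables of GRCm38.p6 gave names and start windows.

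Group means were fitted to every probe set (limma 3.58.1, R 4.3.3, eBayes with intensity trend, two-sided, 4 residual and 6.69 prior degrees of freedom) over 8 contrasts, and each gene was counted by its probe set of highest mean. Errors are standard errors. The procedure was tested on simulated data. Members and gene lists were chosen with earlier results of these data known. All members were named, with up to 4 called genes of each pathway list and up to 3 of each cell type list that moved like a called cathepsin, and the 3 genes most like each called member; Sftpc, Sftpb, Napsa, Lgmn, Ctsa, Ctsf, Cst3, Cstb, Igf2r, Acp5, Muc1, Calcr and the genes most like the Ctse f set were added after their values were seen. Alternatives were other normalizations, filters, floors and variance models, a replicate block, the mean over a gene's probe sets, and leaving out arrays.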

Additional observations from a re-analysis of the deposited data

Results flagged for a closer look

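The Ctse i set, the probe set named with the suffix i, was higher on both Dex arrays than on both Dil arrays, as were 21.1% of tested probe sets. It was lower on both RA-Dex arrays than on both RA arrays, as were 26.3%. The second of these differences did not pass (-0.27 ± 0.196, adjusted p = 0.578), and in the f set the same comparison gave 0.16 ± 0.256 with overlap (adjusted p = 0.824). The difference between these dexamethasone effects, after retinoic acid minus without it, was -1.201 ± 0.277 on the log2 scale, with an unadjusted p of 0.00127 in limma and an adjusted p of 0.578, so the difference did not pass. The Ctse f set had -1.37 ± 0.362 (adjusted p = 0.763) and the unsuffixed set 0.23 ± 0.585 (0.978). Whether the suffixed sets measure Ctse RNA was not tested.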

How the results depend on the processing

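Of 14 calls of cathepsin probe sets, 2 were kept under every alternative, Ctsh and Ctsl with dexamethasone on average. Of 98 values that did not pass, 0 passed under any alternative, though their sign changed in 111 of 1734 recomputed values. With no filter, which tests 12422 probe sets, the genes called became 0 in the retinoic acid average (main count 1), 0 in Dex against Dil (2), 0 in RA-Dex against RA (2), 0 in RA-Dex against Dex (1) and 0 in RA-Dex against Dil (2). With no intensity trend they became 0, 1, 1, 0 and 1 in the same order. With the mean over a gene's probe sets, and with Ctse by its probe set without a suffix, an alternative added after the data were seen, they became 0 in the retinoic acid average, 1 in Dex against Dil and 0 in RA-Dex against Dex. Without both Dex arrays, also added later, the retinoic acid average had 0, and the dexamethasone value of the Ctse f set turned to -0.13. Leaving out each array in turn gave 0 to 0 genes in the retinoic acid average, 1 to 2 in Dex against Dil, 1 to 2 in RA-Dex against RA, 0 to 1 in RA-Dex against Dex and 1 to 2 in RA-Dex against Dil. Where not stated, the cause was not tested. Among the named genes of the other lists, 18 of 34 calls were kept under every alternative.

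With the replicate block the count was 0 in the retinoic acid average, 1 in Dex against Dil and 1 in RA-Dex against Dil. Differences of b minus a correlated between groups at -0.221 to 0.136 over tested probe sets, so no strong shift shared by letter was seen. With 1 such difference a group, these values cannot tell whether the letters pair the samples. Over all alternatives the number of probe sets called ranged from 278 to 594 with dexamethasone on average (main 572), 2 to 47 with retinoic acid on average (11), 80 to 271 in Dex against Dil (236), 81 to 275 in RA-Dex against RA (256), 0 to 16 in RA against Dil (2), 2 to 16 in RA-Dex against Dex (7), 93 to 335 in RA-Dex against Dil (293) and 0 to 22 in the interaction (1).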
